A study of Mus musculus with 2 samples.

Results

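The 7 genes described here carry hexoses into the absorptive cell and start or end their metabolism: Slc5a1, Slc2a5 and Slc2a2 for uptake, Khk for fructose, and Pck1, Fbp1 and G6pc for gluconeogenesis. They were chosen by symbol and are 7 of the 43346 genes quantified, each with 1 row per gene table. Each is set out by its level per library, its transcripts and the reads across its splice junctions.

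The tissue was the duodenum, where the small intestine begins below the stomach, of adult C57BL/6J mice aged 8 weeks, and the labels describe males and females of shared litters combined, with a health state given as unknown. Polyadenylated RNA longer than 200 nucleotides, depleted of ribosomal RNA, was read as stranded pairs of 76 nucleotides in 2 libraries, replicate 2 and replicate 1. The libraries form 1 group with no treatment, genotype or time contrast, so the only comparison is of replicate 2 with replicate 1. They share a donor entry and differ in their tissue-sample entry, so a difference between them is a difference between 2 libraries that may be technical in part.

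Dietary glucose and galactose cross the brush border of the enterocyte with sodium through SGLT1, and fructose crosses it by facilitated diffusion through GLUT5. GLUT2 passes all of these sugars across the basolateral membrane towards the blood. Inside the cell ketohexokinase traps fructose as fructose 1-phosphate, and the small intestine is also one of the few tissues, with liver and kidney, that express glucose 6-phosphatase and can release free glucose made by gluconeogenesis.

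Depth was close, with 44710137 expected counts over genes in replicate 2 and 44272208 in replicate 1, but the libraries differed in cell type markers. The 12 enterocyte markers summed to 29019 TPM (transcript abundance, a level scaled to transcript length and library total) in replicate 2 and 13460 TPM in replicate 1, and 8 of the 12 were called higher in replicate 2 and 1, Alpi, lower. The 12 exocrine pancreas markers summed to 133.1 TPM in replicate 2 and 73611 in replicate 1, and the 9 stomach and Brunner gland markers to 88.3 TPM in replicate 2 and 24746 in replicate 1. All 21 of these were called lower in replicate 2. Together with 5 islet markers they held 0.0232% of the TPM total in replicate 2 and 9.90% in replicate 1, which lowers the TPM of every other gene in replicate 1 in proportion.

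A gene was called different between the libraries where the adjusted p was under 0.05 and the ratio reached 2-fold. The p came from an exact two-sided binomial test on rounded counts, given the scaled library sizes. Of the 7 genes, 3 were called higher in replicate 2 (Slc5a1, Khk and Pck1), 0 were called lower and 4 were not called. Over all 15921 genes tested, 26.1% were called, 11.5% higher and 14.6% lower in replicate 2, so calls were common in this pair of libraries. The median log2 ratio was 0.74 over the 7 genes and -0.04 over all genes tested. In bulk tissue, fewer cells of a type and less RNA per cell cannot be told apart. Under ERCC spike-in totals as library sizes, under the deposited TPM, and under TPM without the pancreas, islet, stomach and Brunner gland markers, 3 of the 7 were higher and 1, Fbp1, was lower.

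**Figure D1:**
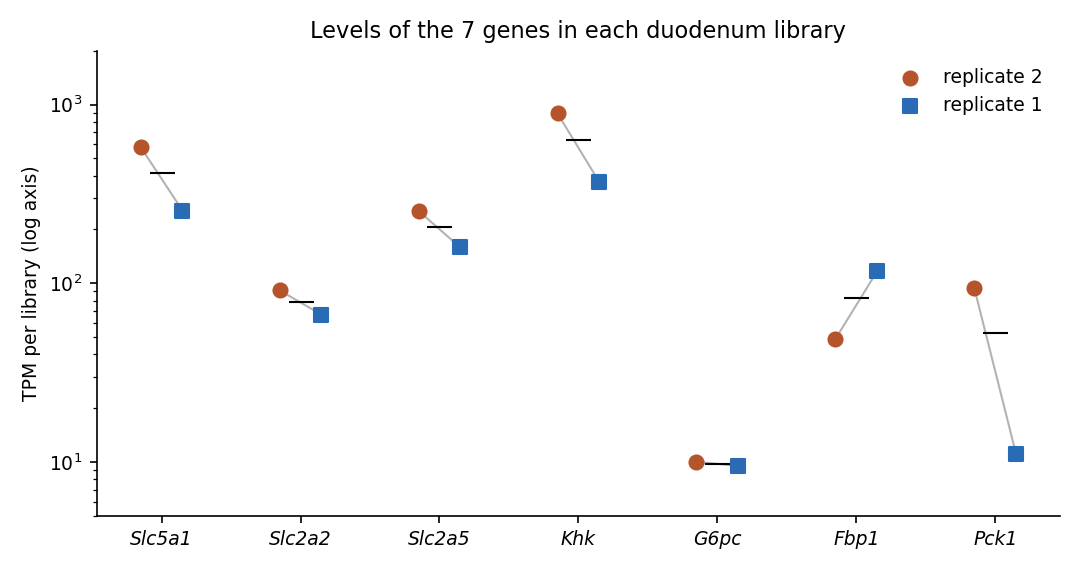
TPM (log axis) of each of the 7 genes in replicate 2 (circles, left) and replicate 1 (squares, right), with the mean of the 2 libraries as a black bar. Khk and Slc5a1 lie highest in both libraries, G6pc lies at 10.02 TPM in replicate 2 and 9.49 in replicate 1, Pck1 has the widest gap, and Fbp1 is the only one of the 7 with more TPM in replicate 1.

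Slc5a1 encodes SGLT1, the sodium-coupled cotransporter that brings glucose and galactose in from the lumen. It had 577 TPM in replicate 2 and 255 in replicate 1, a mean of 416 ± 227 TPM (SD, n = 2). It stood at rank 260 in replicate 2 and rank 480 in replicate 1, where 11798 genes in replicate 2 and 12626 in replicate 1 reached 1 TPM. Its 88993 counts in replicate 2 against 40899 in replicate 1 gave a scaled ratio of 2.54-fold (95% interval 2.51 to 2.57), called higher in replicate 2. The gene (mm10, chr5:33104219-33162870, plus strand) was quantified as 1 protein-coding transcript. A pair of pseudogenes within its span, 5033423K11Rik and Gm15936, were listed at 0 in both libraries.

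Slc2a5 encodes GLUT5, the fructose carrier of the brush border. It had 254 TPM in replicate 2 and 159 in replicate 1, a mean of 206 ± 67.3 TPM (SD, n = 2). From 13235 counts in replicate 2 and 9236 in replicate 1 the scaled ratio was 1.67-fold (1.63 to 1.72), short of the 2-fold limit. Slc2a5 lies at chr4:150119283-150144169 on the plus strand.

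Slc2a2 encodes GLUT2, the high-capacity carrier that exports glucose, galactose and fructose across the basolateral membrane. It had 91.2 TPM in replicate 2 and 66.7 in replicate 1, a mean of 78.9 ± 17.3 TPM (SD, n = 2), so it was the least abundant of the 3 carriers in both libraries. From 6023 counts in replicate 2 and 4367 in replicate 1 its scaled ratio was 1.61-fold (1.55 to 1.67) and was not called. Pancreatic beta cells also make GLUT2 in mice. The 5 islet markers summed to 10.4 TPM in replicate 2 and 609 in replicate 1, with 3 called lower in replicate 2 and 2 not called. The insulin transcripts Ins1 and Ins2 were at 0 and 1.03 TPM in replicate 2 and at 66.7 and 522 TPM in replicate 1, whereas Gcg was at 8.00 TPM in replicate 2 and 7.01 in replicate 1. The part of islet cells in the Slc2a2 level was not tested. Slc2a2 (chr3:28697903-28731359, plus strand) overlaps an antisense gene, 1700112D23Rik, which was listed at 0 in both libraries.

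Khk encodes ketohexokinase, which phosphorylates fructose at carbon 1. It was the most abundant of the 7 at the level of the gene, with 891 TPM in replicate 2 (rank 167) and 369 TPM in replicate 1 (rank 326), a mean of 630 ± 369 TPM (SD, n = 2). Its 28118 counts in replicate 2 and 12064 in replicate 1 gave a scaled ratio of 2.72-fold (2.66 to 2.78), called higher in replicate 2. Khk lies at chr5:30921431-30931248 on the plus strand.

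Pck1 encodes the cytosolic phosphoenolpyruvate carboxykinase, the enzyme that commits oxaloacetate to gluconeogenesis and also feeds glycerol synthesis in fat cells. It had 93.9 TPM in replicate 2 and 11.1 in replicate 1, a mean of 52.5 ± 58.6 TPM (SD, n = 2), so the SD exceeded the mean. From 8833 counts in replicate 2 and 1088 in replicate 1 its scaled ratio was 9.47-fold (8.89 to 10.1), called higher in replicate 2 and the largest of the 7. All 6 adipocyte markers were also called higher in replicate 2 and summed to 664 TPM there, against 134 TPM in replicate 1. Most of the sum in replicate 1 was Cidec, at 289 TPM in replicate 2 and 123 in replicate 1 (2.66-fold). Cfd was at 334 TPM in replicate 2 and 8.75 in replicate 1. Adiponectin (Adipoq) was at 11.7 TPM in replicate 2 and 0.82 in replicate 1, and perilipin 1 (Plin1) at 26.3 TPM in replicate 2 and 0.99 in replicate 1. The part of fat cells in the Pck1 difference was not tested. Pck1 lies at chr2:173153048-173159273 on the plus strand.

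Fbp1 encodes fructose-1,6-bisphosphatase 1, which reverses the phosphofructokinase step. In these levels it ran against the other 6, with 48.7 TPM in replicate 2 and 117 in replicate 1, a mean of 82.6 ± 48.0 TPM (SD, n = 2). From 2404 counts in replicate 2 and 5173 in replicate 1 the scaled ratio was 0.54 (0.52 to 0.57), that is 1.84-fold lower in replicate 2 (1.76 to 1.94), which is inside the 2-fold limit. It passed that limit at 2.18-fold lower with ERCC totals as library sizes and at 2.39-fold lower in the deposited TPM. Fbp1 lies at chr13:62864753-62888282 on the minus strand. The pancreas, stomach and Brunner gland markers move the same way as Fbp1, and their part in its difference was not tested.

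G6pc encodes the catalytic subunit of glucose 6-phosphatase, the last step to free glucose. It had 10.02 TPM in replicate 2 and 9.49 in replicate 1, a mean of 9.76 ± 0.375 TPM (SD, n = 2), the lowest level and the smallest gap of the 7. From 874 counts in replicate 2 and 864 in replicate 1 the scaled ratio was 1.18-fold (1.07 to 1.30; adjusted p = 0.000948, exact binomial test with Benjamini-Hochberg adjustment), and it was not called. The direction depended on the scaling, since the ratio was 0.998 with ERCC totals and 0.952 in TPM without the pancreas, islet, stomach and Brunner gland markers. G6pc lies at chr11:101367561-101377903 on the plus strand.

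Hepatocytes and kidney tubule cells express several of these genes strongly. The 7 liver markers summed to 6.00 TPM in replicate 2 and 24.5 in replicate 1, and of the 5 tested 1 was called higher in replicate 2, 3 lower and 1 was not called. Most of that sum was transthyretin (Ttr), at 4.01 TPM in replicate 2 and 21.8 in replicate 1, which is above G6pc and Pck1 in replicate 1. Every other liver marker was far below Ttr in replicate 1, and none exceeded 1.27 TPM (Apoh, replicate 2) in either library. Albumin (Alb) was at 0.03 TPM in replicate 2 and 0.72 in replicate 1, and Fgb was listed at 0 in both. The 6 kidney tubule markers summed to 0.11 TPM in replicate 2 and 0.36 in replicate 1, with Slc12a1, Slc22a6 and Kap listed at 0 in both. The part of liver or kidney cells in the levels of the 7 genes was not tested.

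By TPM the order in replicate 2 was Khk, Slc5a1, Slc2a5, Pck1, Slc2a2, Fbp1 and G6pc. In replicate 1 it was Khk, Slc5a1, Slc2a5, Fbp1, Slc2a2, Pck1 and G6pc, so the first 3 places, Slc2a2 in place 5 and G6pc in place 7 were the same. Pck1 and Fbp1 exchanged places 4 and 6. Neighbours in these orders did not all differ beyond the gap between the libraries. Khk in replicate 1 (369 TPM) lay below Slc5a1 in replicate 2 (577 TPM), and Slc5a1 in replicate 1 (255 TPM) lay next to Slc2a5 in replicate 2 (254 TPM). The ranges of Slc2a2, Fbp1 and Pck1 overlapped one another, while G6pc lay below all values of the other 6 genes, with Pck1 in replicate 1, at 11.1 TPM, the closest to it.

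Gene levels sum over transcripts that encode different products or none, and the authors' quantifier shares out fragments that match several of them. In the plot of transcript shares, protein-coding transcripts made up less of the gene's TPM than of its fragments wherever a short second transcript was present.

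**Figure D2:**
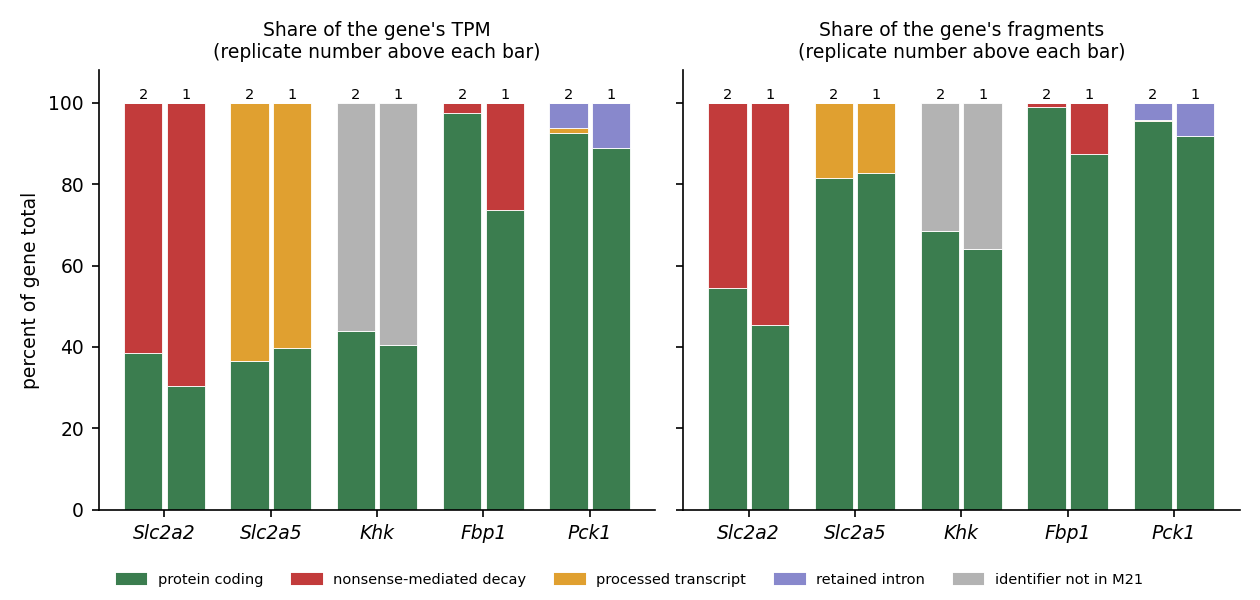
Share of each gene's TPM (left) and of its fragments (right) in percent, by the transcript type in GENCODE M21, for the 5 genes with more than 1 transcript, with replicate 2 left of replicate 1 in each pair. Protein-coding transcripts hold 36.5% of the Slc2a5 TPM in replicate 2 and 39.7% in replicate 1 but 81.6% of its fragments in replicate 2 and 82.8% in replicate 1, and the nonsense-mediated decay share of Fbp1 is larger in replicate 1.

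For Slc2a5, the protein-coding Slc2a5-201 (3158 nt) held 36.5% of the TPM in replicate 2 and 39.7% in replicate 1. A processed transcript of 594 nt that starts inside the gene, Slc2a5-204, held 63.5% in replicate 2 and 60.1% in replicate 1, although it took only 18.4% of the fragments in replicate 2 and 17.1% in replicate 1. TPM divides by length, so few fragments on a short transcript weigh heavily. All introns of Slc2a5-204 are also introns of Slc2a5-201, so no splice junction is unique to Slc2a5-204. Taken alone, Slc2a5-201 was at 92.6 TPM in replicate 2 and 63.0 in replicate 1.

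For Slc2a2, the files assign most of the TPM to Slc2a2-202, which lacks exon 4 and which the annotation marks as a target of nonsense-mediated decay. Its isoform percent was 61.6% in replicate 2 and 69.6% in replicate 1, a mean of 65.6% ± 5.69 (SD, n = 2), and its share of fragments was 45.6% in replicate 2 and 54.7% in replicate 1. The coding Slc2a2-201 was then at 35.1 TPM in replicate 2 and 20.3 in replicate 1. As quantified it is 2573 nt long, against 5569 nt in M21, so its structure differs and these levels belong to the shorter form. Exon 4 (chr3:28713693-28713817) has 125 nt, which is not a multiple of 3, so its loss shifts the reading frame. The deposited junction list, a count of reads across each intron summed over both libraries, does not list the junction that joins exon 3 to exon 5. It lists 61 reads from exon 3 to exon 4 and 378 reads from exon 4 to exon 5. The 30 bases that would span the skipped junction are shown because they are the only sequence unique to the splicing of Slc2a2-202 (GENCODE M21, GRCm38), with the first bases of exon 5 in capitals.
Slc2a2 exon 3 to exon 5 junction: ggacaaacttggaagGGCTAATTTCAGGAC

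For Fbp1, the share that differed most between the libraries was that of Fbp1-202, a nonsense-mediated decay transcript of 704 nt. It was at 1.25 TPM, or 2.56% of the gene, in replicate 2 and at 30.7 TPM, or 26.4%, in replicate 1. The coding Fbp1-201 held 97.4% in replicate 2 and 73.5% in replicate 1. Taken alone, Fbp1-201 was at 47.4 TPM in replicate 2 and 85.6 in replicate 1, a TPM ratio of 0.55, against 0.42 for the whole gene. The first intron of Fbp1-202, which no other transcript of the gene has, is not in the junction list, while the first intron of Fbp1-201 has 699 reads.

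For Pck1, the coding Pck1-201 held 92.6% of the TPM in replicate 2 and 88.8% in replicate 1. It was at 87.0 TPM in replicate 2 and 9.87 in replicate 1, so the gap between the libraries was about as wide for the coding transcript as for the gene. Slc5a1 and G6pc had 1 transcript each.

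Only transcripts that M21 marks as protein coding are counted next. The type of 3 of the 4 Khk transcripts is unknown here, and the Khk-201 entry differs in length from its M21 form. If the Khk-201 entry is coding, the coding level of Khk lies between 391 TPM, that entry alone, and 891 TPM in replicate 2. In replicate 1 it then lies between 149 and 369 TPM. Slc5a1, at 577 TPM in replicate 2 and 255 in replicate 1, falls inside both ranges, so these levels do not order Slc5a1 and Khk. Of the other 5 genes, Slc2a5 stood highest in replicate 2 but behind Fbp1 in replicate 1, and Slc2a2 stood below Fbp1 in both libraries. The place of Slc2a2 rests on a Slc2a2-201 entry that is shorter than in M21.

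Khk is spliced with a choice between adjacent exons after exon 2, and the product carries a different stretch of protein for each. In the literature the upstream exon gives ketohexokinase-A, a widely expressed form with a low affinity for fructose, and the downstream exon gives ketohexokinase-C, the high-affinity form of liver, kidney and intestine. The annotation does not carry these letters, so the exons are called upstream and downstream here. They are shown because the choice between them decides which enzyme the tissue makes. Both are on the plus strand of chromosome 5 (GENCODE M21 transcripts, GRCm38), the upstream one at chr5:30926688-30926822 and the downstream one at chr5:30927022-30927156, and capitals mark the positions at which they differ.
Khk upstream exon: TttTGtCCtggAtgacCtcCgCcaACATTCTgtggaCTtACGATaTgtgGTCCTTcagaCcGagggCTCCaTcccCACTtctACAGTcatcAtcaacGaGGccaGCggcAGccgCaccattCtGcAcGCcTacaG
Khk downstream exon: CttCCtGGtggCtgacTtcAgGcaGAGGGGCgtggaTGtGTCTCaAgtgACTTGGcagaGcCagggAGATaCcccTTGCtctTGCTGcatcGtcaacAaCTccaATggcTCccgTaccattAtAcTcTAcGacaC

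Each exon has 135 nt, or 45 codons, so that exchanging one for the other keeps the reading frame. Aligned without gaps they are identical at 73 positions and differ at 62, an identity of 54.1%. Their GC content is close, at 55.6% in the upstream exon and 54.8% in the downstream exon.

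Junction reads went mostly to the downstream exon. Of 5202 reads that leave exon 2, 4630 or 89.0% (95% exact binomial interval 88.1 to 89.8) entered the downstream exon. The upstream exon received 495 reads or 9.52% (8.73 to 10.4), and 77 reads or 1.48% (1.17 to 1.85) passed over both. Of 337 reads that leave the upstream exon, 241 or 71.5% (66.4 to 76.3) ran into the downstream exon, an arrangement with both exons in 1 transcript, and 96 or 28.5% (23.7 to 33.6) joined the next shared exon. Of 3515 reads that enter that shared exon across these junctions, 3342 or 95.1% (94.3 to 95.8) came from the downstream exon and 96 or 2.73% (2.22 to 3.33) from the upstream one. The intervals cover counting error only, and since the list sums both libraries, no split by replicate is given.

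**Figure D3:**
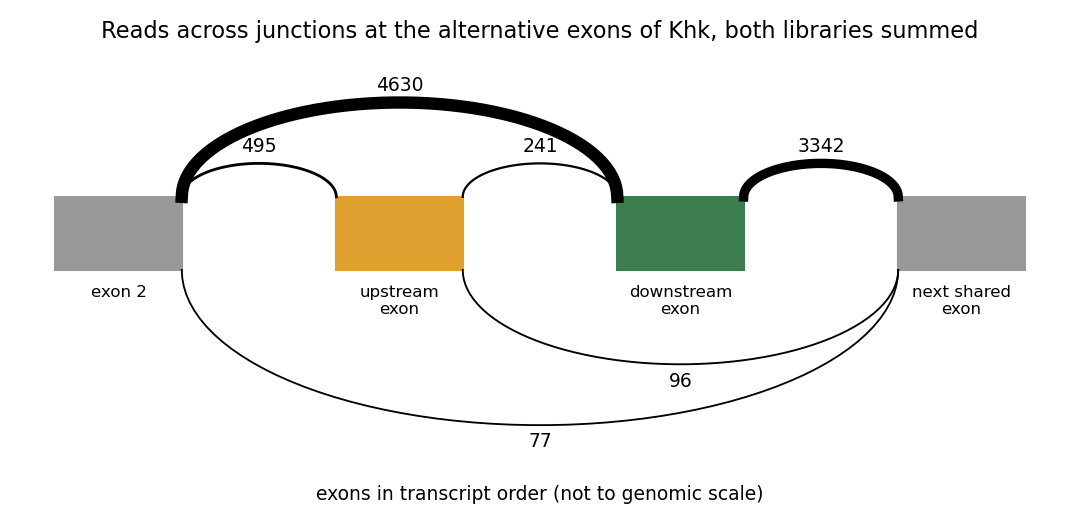
Reads across each junction around the alternative exons of Khk, summed over both libraries; boxes are exons in transcript order, arcs are junctions, and the number on an arc is its read count. The thickest arc, 4630 reads, joins exon 2 to the downstream exon, against 495 reads into the upstream exon and 77 past both.

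The transcript tables cannot be set directly beside these junction shares. Of the 4 Khk transcripts quantified, 3 have no entry of the same identifier in GENCODE M21. The remaining one, Khk-201, is 1456 nt long in the files and 1257 nt in M21, so its structure differs. A 544-nt transcript without an M21 entry held 44.1% of the Khk TPM in replicate 2 and 43.7% in replicate 1, with 18.3% of the fragments in replicate 2 and 19.4% in replicate 1. The Khk-201 entry held 43.9% of the TPM in replicate 2 and 40.4% in replicate 1, and 68.5% of the fragments in replicate 2 and 64.1% in replicate 1. A 754-nt transcript without an M21 entry held 4.03% of the TPM in replicate 2 and 7.54% in replicate 1, and 2.74% of the fragments in replicate 2 and 5.34% in replicate 1.

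The junction list held most annotated introns of the 7 genes, matched by intron length and spacing along the gene. It had 14 of 14 for Slc5a1 with 48820 reads, 11 of 13 for Slc2a5 with 20646, 10 of 11 for Khk with 18610, and 10 of 10 for Pck1 with 5655. It had 9 of 11 for Slc2a2 with 4786 reads, 6 of 8 for Fbp1 with 1005, and 4 of 4 for G6pc with 286. An intron shared by the Slc2a2 transcripts and one shared by the Khk transcripts were listed at the same length but shifted by 2 nt, with 508 reads for Slc2a2 and 1554 for Khk, and they are not in those counts. The first and second introns of Slc2a5-201 were not listed, whereas the next intron had 515 reads.

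Reads were spread unevenly along single genes. In Slc5a1 they ranged between 276 at intron 7 and 8285 at intron 1. In Slc2a5 they ranged between 43 at intron 5 and 8540 at intron 12, and in Slc2a2 between 7 at intron 6 and 1284 at intron 10. In Pck1, introns 7, 8 and 9 had 1190, 1520 and 1669 reads, and introns 1 to 6 had 22 to 347. The cause of the unevenness was not tested.

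**Figure D4:**
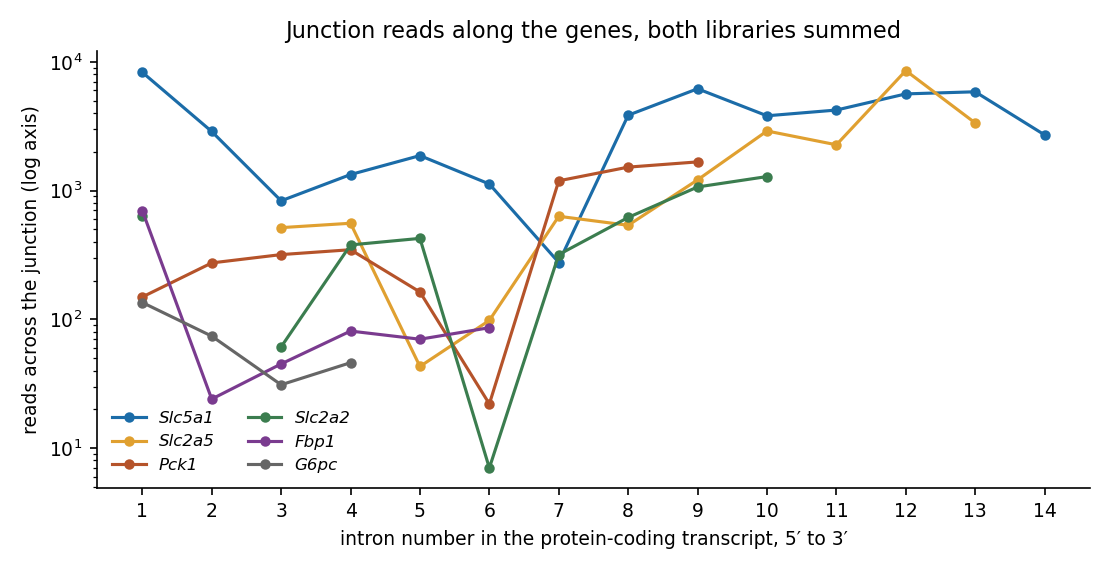
Reads across each intron (log axis), summed over both libraries, by intron number along the protein-coding transcript of 6 genes; a gap in a line is an intron that the list does not hold at its annotated place. Reads of Slc2a5, Slc2a2 and Pck1 are higher at the introns towards the 3′ end, whereas those of Fbp1 and G6pc are highest at intron 1.

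The other hexose transporter genes, 14 of 16 tested, had 5 called higher in replicate 2, 1 called lower and 8 not called, with a median log2 ratio of 0.26. Slc2a7, which encodes the GLUT5 relative GLUT7, was at 175 TPM in replicate 2 and 61.5 in replicate 1 (3.27-fold, 3.14 to 3.40). The inositol and glucose cotransporter gene Slc5a11 was at 232 TPM in replicate 2 and 61.2 in replicate 1 (4.51-fold, 4.36 to 4.67). Slc5a4a and Slc5a4b, close copies of each other and relatives of Slc5a1, were at 66.8 and 52.7 TPM in replicate 2 and at 7.58 and 5.08 TPM in replicate 1. Their ratios of 9.83-fold and 11.6-fold are uncertain gene by gene, because fragments that match both are shared out. Slc5a9 was at 22.96 TPM in replicate 2 and 12.3 in replicate 1 (2.39-fold, 2.21 to 2.58). Slc2a10 was the one called lower, at 2.58 TPM in replicate 2 and 7.68 in replicate 1 (2.65-fold lower, 2.35 to 3.01).

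Of 7 other enzymes of fructose and polyols, 2 were called higher in replicate 2, 0 lower and 5 not called, with a median log2 ratio of 0.18. Tkfc, which phosphorylates the glyceraldehyde that comes from fructose, was at 233 TPM in replicate 2 and 230 in replicate 1 (1.13-fold, 1.11 to 1.15). Khk, at 2.66-fold to 2.78-fold, had a wider gap between the libraries than Tkfc, a later enzyme of its pathway, with intervals that do not overlap. The called ones were Sord, sorbitol dehydrogenase, at 27.8 TPM in replicate 2 and 11.4 in replicate 1, and Glyctk, glycerate kinase, at 28.6 TPM in replicate 2 and 7.86 in replicate 1. None of the 5 galactose enzymes reached 2-fold, although the interval of each ratio excluded 1, and their median log2 ratio was 0.39.

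Of the other gluconeogenic genes, 12 of 13 tested, 4 were called higher in replicate 2, 0 lower and 8 not called, with a median log2 ratio of 0.25. Fbp2, the relative of Fbp1 best known from muscle, was at 137 TPM in replicate 2 and 67.4 in replicate 1 (2.25-fold, 2.16 to 2.35), the opposite direction from Fbp1. Fbp2 was thus the more abundant of the pair in replicate 2 and Fbp1 in replicate 1. Slc37a4, the carrier that brings glucose 6-phosphate to the G6pc enzyme in the endoplasmic reticulum, was at 62.8 TPM in replicate 2 and 33.2 in replicate 1 (2.11-fold, 2.01 to 2.22). Gpt, alanine aminotransferase, was at 383 TPM in replicate 2 and 110 in replicate 1 (3.88-fold, 3.77 to 3.98), and Mdh1, cytosolic malate dehydrogenase, at 180 TPM in replicate 2 and 82.0 in replicate 1 (2.48-fold, 2.41 to 2.56). The most abundant of the list, Mdh2, was at 3290 TPM in replicate 2 and 4274 in replicate 1 and was not called. The 4 called higher became 2 with ERCC totals and 1 in TPM without the markers.

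The glycolytic enzymes gave 2 called higher in replicate 2, 2 lower and 16 not called of 20, with a median log2 ratio of 0.14. Ldha, lactate dehydrogenase A, stood at the limit with 1252 TPM in replicate 2 and 694 in replicate 1 (2.00-fold, 1.98 to 2.03). Hk3 was called higher at under 2 TPM in each library, and Aldoc was among those called lower, at 12.1 TPM in replicate 2 and 28.5 in replicate 1. With ERCC totals, deposited TPM or TPM without the markers, 0 glycolytic enzymes were called higher.

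Of the regulators of hexose genes, 23 of 24 tested, 5 were called higher in replicate 2, 2 lower and 16 not called, with a median log2 ratio of 0.20. Cebpb, a factor that binds the Pck1 promoter in liver, was at 739 TPM in replicate 2 and 194 in replicate 1 (4.22-fold, 4.13 to 4.31), and Cebpa at 121 TPM in replicate 2 and 63.5 in replicate 1 (2.12-fold, 2.06 to 2.19). Cdx2, the intestinal homeobox factor, was at 376 TPM in replicate 2 and 140 in replicate 1 (3.01-fold, 2.95 to 3.08). Pfkfb3, which makes the fructose 2,6-bisphosphate that inhibits Fbp1, was at 14.2 TPM in replicate 2 and 3.56 in replicate 1 (4.05-fold, 3.71 to 4.43). Rsc1a1, whose product regulates the trafficking of SGLT1, was at 8.97 TPM in replicate 2 and 29.0 in replicate 1. That is 2.91-fold lower in replicate 2 (2.64 to 3.21), the opposite direction from Slc5a1. Overlap with other genes was not looked up for Rsc1a1, so fragments from another gene at its place were not assessed. Pdzk1ip1 was at 5.30 TPM in replicate 2 and 27.4 in replicate 1, 3.41-fold lower in replicate 2 (2.78 to 4.22).

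**Figure D5:**
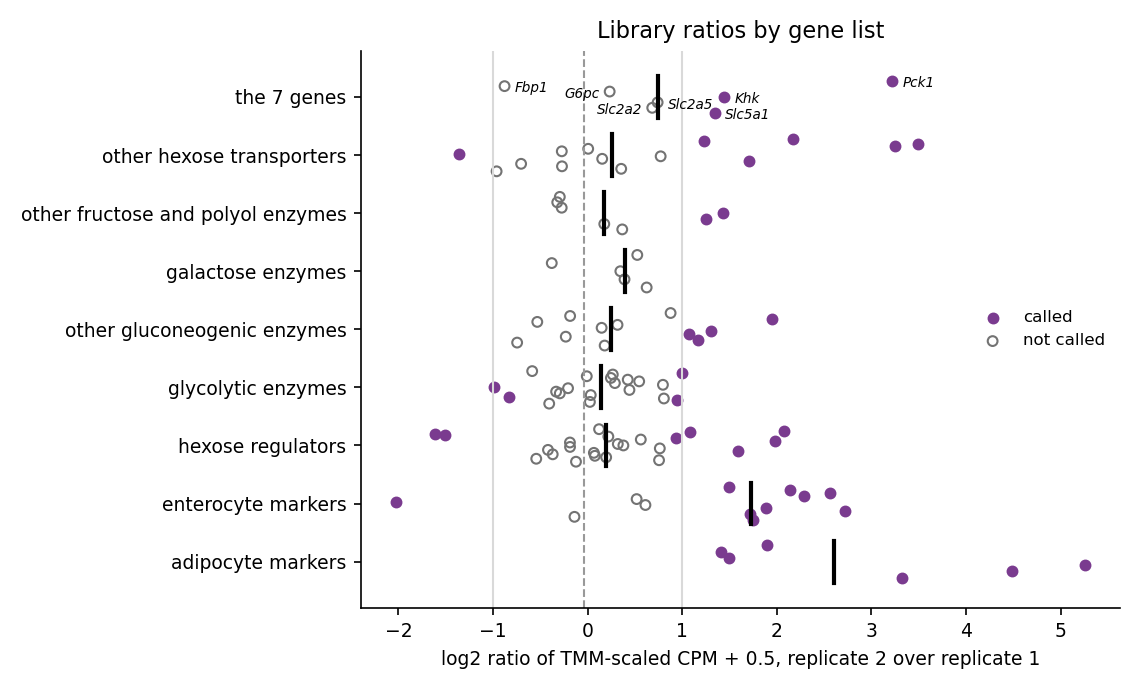
Log2 ratio, replicate 2 over replicate 1, of TMM-scaled CPM (counts scaled to library size) plus 0.5, 1 point per gene tested, by gene list; filled points were called, black bars are list medians, the dashed line is the median of all genes tested at -0.04, and the grey lines mark 2-fold. Calls use the count ratio without the added 0.5, so a called gene with few counts can lie just inside a grey line; enterocyte and adipocyte markers have the highest medians, 1.73 and 2.61.

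Over these 6 lists, 18 of 81 genes tested were called higher in replicate 2, 5 lower and 58 not called, with a median log2 ratio of 0.22. The split of calls shifted to 13 higher and 6 lower with ERCC totals, to 13 and 7 in deposited TPM, and to 11 and 8 in TPM without the markers. Over all genes it was 1830 higher and 2324 lower in the main comparison, and 1257 higher and 3208 lower with ERCC totals. These settings shift the median log2 ratio of all genes by -0.21 (ERCC), -0.11 (TPM) and -0.23 (TPM without the markers).

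The 3 genes called higher in replicate 2 have promoters of different make-up, shown because these genes moved in the same direction between the libraries. The windows run over 250 bases before and 50 after the start site given by RefSeq (GRCm38.p6), all on the plus strand: Pck1 at chr2:173152823-173153122, Slc5a1 at chr5:33103969-33104268 and Khk at chr5:30921309-30921608. Capitals mark matches to the motifs named after the sequences.
Pck1 promoter: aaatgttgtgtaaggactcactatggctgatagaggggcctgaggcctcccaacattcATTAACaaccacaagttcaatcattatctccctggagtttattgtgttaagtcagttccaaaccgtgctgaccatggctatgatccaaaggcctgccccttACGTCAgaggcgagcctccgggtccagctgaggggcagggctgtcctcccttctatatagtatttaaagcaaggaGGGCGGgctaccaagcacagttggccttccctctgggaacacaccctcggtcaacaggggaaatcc
Slc5a1 promoter: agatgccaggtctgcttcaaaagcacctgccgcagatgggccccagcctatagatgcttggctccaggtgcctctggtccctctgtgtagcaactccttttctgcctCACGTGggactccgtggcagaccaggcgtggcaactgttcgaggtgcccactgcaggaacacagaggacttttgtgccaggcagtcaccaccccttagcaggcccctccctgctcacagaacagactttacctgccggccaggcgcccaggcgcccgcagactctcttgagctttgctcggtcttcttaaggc
Khk promoter: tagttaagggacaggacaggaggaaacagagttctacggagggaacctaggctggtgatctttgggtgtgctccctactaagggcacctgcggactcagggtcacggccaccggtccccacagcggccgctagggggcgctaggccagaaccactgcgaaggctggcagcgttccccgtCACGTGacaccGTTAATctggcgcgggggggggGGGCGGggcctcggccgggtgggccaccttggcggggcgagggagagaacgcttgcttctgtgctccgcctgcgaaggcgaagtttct

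The motifs were searched on both strands in all 7 windows and in 32851 promoter windows of the same length. The core of the cAMP response element, ACGTCA, lies at -91 in the Pck1 window and in none of the other 6, and 7.51% of all windows hold it. The E-box CACGTG lies at -71 in Khk and -143 in Slc5a1, against 7.15% of all windows. The HNF1 half-site GTTAAT lies at -192 in Pck1 (minus strand), -60 in Khk and -221 in G6pc, against 7.10% of all windows. The GC box GGGCGG lies in Pck1, Khk, Slc2a5 and Fbp1, against 35.7% of all windows. Among the 7, the exact TATA box letters TATAAA lie only in G6pc, against 13.6% of all windows. Variants of these letters were not searched, so a TATA box of another spelling would be missed. The CDX site TTTATG lies in 0 of the 7 windows, against 11.9% of all windows. No motif was shared by the 3 called genes, and a match is a match of letters only.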

How the data were processed

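Per the text files beside the tables, the authors aligned reads to mm10 and quantified them against GENCODE M4. No aligner or quantifier is given in the sources used here. Expected counts, as deposited, are unnormalised fragment numbers in which the authors shared out multiply mapping fragments. The authors scaled TPM for transcript length and library total, and the deposited isoform percent is a transcript's share of its gene's TPM, per the file headers. Deposited counts of reads across junctions (mm9) are summed over both libraries. Their R1 and R2 parts could not be assigned to a replicate, and no coordinate was converted: introns were matched by length and spacing to GENCODE M21 genes.

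Expected counts were rounded, and library sizes were scaled by TMM (edgeR 4.0.16, R 4.3.3) over genes averaging at least 10 counts. Of 43346 gene rows, 42462 had a symbol. The 26248 numbered rows, all at 0, the 96 ERCC rows (1.36% of counts in replicate 2 and 1.35% in replicate 1) and 1 phiX row stayed out of library sizes and tests. Each gene's rounded counts were compared, given these library sizes, by an exact two-sided binomial test with Benjamini-Hochberg adjustment over 15921 genes. It was called at an adjusted p under 0.05 and a ratio of at least 2-fold. Ratios are replicate 2 over replicate 1, with 95% Clopper-Pearson intervals that cover counting error only. A count of 0 allows 3 counts. Log2 ratios use CPM plus 0.5, which understates low genes. Alternatives were DESeq2 1.42.0 size factors, ERCC totals, posterior mean counts, no count filter, deposited TPM, and TPM without markers of neighbouring organs, where TPM ratios have no test. The procedure was tested on simulated counts with counting error only, and other variation between libraries was not simulated. Python 3.11.15, pandas 2.3.3 and scipy 1.17.1 were used.

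The 7 genes, the gene lists and the markers were chosen with earlier results of these data known. From each other list, called genes and those with the highest mean TPM are named, at most 6 a list, and some are not reported here.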

Additional observations from a re-analysis of the deposited data

How the results depend on the processing

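Across 6 alternatives, Slc5a1 stayed between 2.04-fold and 2.60-fold higher in replicate 2, Khk between 2.18-fold and 2.79-fold, and Pck1 between 7.62-fold and 9.72-fold. Slc2a2 (1.23-fold to 1.65-fold) and Slc2a5 (1.41-fold to 1.72-fold) stayed under 2-fold. G6pc, at 1.18, turned to 0.998 with ERCC totals and to 0.952 in TPM without the neighbouring-organ markers. Fbp1, at 0.54, passed the 2-fold limit at 0.458 with ERCC totals, 0.418 in deposited TPM and 0.377 in TPM without the markers, so that 1 of the 7 was then called lower, against 0. In TPM without the markers, pathway genes called higher numbered 11 against 18, those called lower 8 against 5, and all genes called lower 3779 against 2324. The TPM settings have no test, and the cause was not tested.

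Leaving out a library leaves no ratio, and mean levels then take the value of the other library, between 255 and 577 TPM for Slc5a1, 369 and 891 for Khk, and 11.1 and 93.9 for Pck1. No paired analysis was possible because the 2 libraries form 1 group. Depth limits G6pc most, with 874 counts in replicate 2 and 864 in replicate 1.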
